A study of Mus musculus with 6 samples.

Results

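Fatty acid oxidation and peroxisome genes were compared between lung group 2 innate lymphoid cells (ILC2s) that produced IL-10 and ILC2s that did not. The set holds 33 genes, listed by their function but chosen with earlier results of these data known. It covers acyl-CoA synthetases, the carnitine shuttle, the mitochondrial cycle with its electron carriers, peroxisomal enzymes and import factors, a lipase and nuclear regulators. Of the 33 genes, 31 had a row among the 21017 genes of the count table, and Ppara and Ppargc1a were not analysed here.

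Fatty acid oxidation breaks fatty acids down in mitochondria and, for very long and branched chains, begins in peroxisomes. Fatty acids are first joined to coenzyme A, carried across the inner mitochondrial membrane as carnitine esters, and shortened in a repeating cycle of dehydrogenation, hydration, a further dehydrogenation and thiolysis, with the electrons passed on to the respiratory chain. ILC2s, lymphocytes of barrier tissues such as the lung that secrete type 2 cytokines without carrying an antigen receptor, are known to take up fatty acids and to use their oxidation as a fuel.

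RNA sequencing was done on IL-10-producing ILC2s (3 libraries) and IL-10-negative ILC2s (3 libraries) from the lungs of 8-week-old IL-10GFP reporter mice on the C57BL/6J background. What the 2 groups share is the exposure: rm-IL-33, an alarmin cytokine that activates ILC2s, was given intranasally 3 times at 0.5 µg per mouse, and the sorted cells were kept for 48 h with rm-IL-2, rm-IL-7 and rm-IL-4 at 10 ng/mL each before a second sort by IL-10. The labels call the cells freshly sorted, and no group without IL-33 or without culture enters the comparison. The labels do not say whether the libraries of a group came from separate mice or cultures, or from pooled mice, and the spread behind each p-value is that of these 6 libraries, which may be technical in part or whole.

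Library totals ran from 47012941 to 69511433 counts in the IL-10-producing group and from 51218587 to 57989729 in the IL-10-negative group. Il10, the gene whose reporter was sorted on, averaged 848 ± 7.78 CPM in the IL-10-producing libraries and 13.5 ± 0.608 CPM in the IL-10-negative ones (CPM, read counts scaled to the size of the library, SD, n = 3), which checks the labels and is no finding. All 16 ILC2 markers reached at least 1 CPM in every library, and 5 of them were higher and 9 lower in IL-10-producing libraries. Markers of some other cells moved with the sort, where 35.7% of all genes passed the same test. For T cells, 15 of 16 markers were lower in IL-10-producing libraries, with summed levels of 127 to 130 CPM against 216 to 223 CPM in IL-10-negative libraries. Most of the sum in IL-10-producing libraries came from Trbc2, Lef1 and Trbc1, named after their values were seen. They averaged 48.2, 41.5 and 18.8 CPM there and 58.4, 33.1 and 21.2 CPM in IL-10-negative libraries, Lef1 being the higher marker. The median log2 fold change (IL-10-producing over IL-10-negative) of the 16 markers was -2.67. All 14 tested of 16 granulocyte, basophil and mast cell markers present were lower too, with 13.1 to 15.3 CPM in IL-10-producing against 107 to 112 CPM in IL-10-negative libraries. Other lists were mixed. Of 11 macrophage, monocyte and dendritic cell markers tested, 3 were higher and 4 lower, and of 3 ILC3 markers 1 was higher and 2 lower. Of 3 endothelial markers 2 were higher, of 4 epithelial markers 2 were lower, and of 4 erythroid and platelet markers 3 were lower. Of 3 fibroblast and smooth muscle markers tested, 0 passed. Of 8 B cell markers tested, 6 were lower and 1 higher, with sums of 42.1 to 44.8 CPM in IL-10-producing against 39.0 to 39.5 CPM in IL-10-negative libraries, most of it Ighm and Cd79b. Of 10 natural killer and ILC1 markers, 2 were higher and 5 lower among 7 tested, with sums of 77.4 to 89.0 CPM in IL-10-producing and 26.5 to 27.7 CPM in IL-10-negative libraries, and Gzma, a granzyme gene named after its values were seen, made up most of the sum in IL-10-producing libraries. Without Gzma the sums were 5.9 to 6.95 CPM in IL-10-producing and 16.7 to 17.2 CPM in IL-10-negative libraries, and Ncr1, Klra4 and Klrd1 were at 0 in all IL-10-producing libraries. No T cell or granulocyte marker with a row was at 0 in all libraries of a group. The part of these cells in the differences below was not tested. In bulk RNA, fewer cells of a type and less RNA per cell cannot be told apart.

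Of the 31 genes, 9 were higher and 6 were lower in IL-10-producing ILC2s, and the other 16 did not pass the test, which was edgeR's quasi-likelihood test with Benjamini-Hochberg adjustment over all 16654 genes tested, at an adjusted p under 0.05. The same test called 35.7% of all genes, 17.1% higher and 18.6% lower, against 48.4% of the gene set, 29.0% higher and 19.4% lower. With scaling by library size alone the split was 5 higher and 8 lower, where that scaling called 36.0% of all genes, 13.2% higher and 22.8% lower. With a correction for GC content and length, which called 35.9% of all genes, 17.4% higher and 18.5% lower, 9 genes of the set were higher and 3 lower. The well measured genes are a nearer background: among the 13257 genes with at least 50 counts in 3 libraries, 43.2% passed, 21.3% higher and 21.9% lower, and 10 genes of the set were higher and 6 lower in that fit. The counts by step below stand beside the shares of all genes tested, which are lower than those of the well measured genes. No more is read from the share of genes that changed. The 3 libraries of each group did not overlap for 13 genes that were higher and 6 that were lower, a pattern that 45.2% of all genes tested showed (21.7% higher and 23.5% lower). Every gene of the set passed the filter on low counts, with 300 to 15187 counts per library.

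The changes were small. The median log2 fold change (IL-10-producing over IL-10-negative, as throughout) was 0.05 over the gene set and -0.004 over all genes tested, and the median size without sign was 0.107 for the set and 0.14 for all genes. No gene of the set changed 2-fold, and only Hadh, Acot2 and Decr1 differed by 0.2 or more on the log2 scale. Tested against a change of 1.2-fold, which 7.91% of all genes passed (2.44% higher and 5.46% lower), Hadh remained higher (edgeR glmTreat adjusted p = 4.09e-05) and Acot2 lower (adjusted p = 0.0476), while Decr1 had an adjusted p of 0.437. The 16 genes that did not pass had log2 fold changes between -0.12 and 0.14, and their intervals of 2 standard errors stayed between -0.23 and 0.24. Summed over the 31 genes, the level was 1994, 1999 and 1991 CPM in IL-10-producing libraries and 1896, 1901 and 1906 CPM in IL-10-negative libraries, so the sums did not overlap. Abundant genes weigh most in such a sum, and Hadh, Acsl5, Acadl, Cpt1a and Hadha made up most of the difference.

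Some counts are uncertain, since the use of strand in counting is not given. Exons of 10 genes overlap a gene on the other strand (Acsl1, Acsl5, Crat, Acadvl, Hadha, Echs1, Eci2, Etfdh, Acaa1a and Pex14), and those of Acsl3, Acad9 and Etfb a gene on the same strand. In Acot2, Acad9, Hadhb, Etfb and Acaa1a at least 10% of the 50-base stretches of the transcripts also occur in another gene.

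A total of 8 genes passed in the fit reported here and in all 15 alternatives that test for any change: Acsl5, Cpt1a, Acadl, Hadh and Hsd17b4, which rose, and Acot2, Decr1 and Acaa1a, which fell. Over all genes tested, 23.1% passed in the same direction in every one of these fits, 11.2% higher and 11.9% lower. A gene left out of a fit counted there as not passing, and the filter of at least 50 counts in 3 libraries kept only 13257 genes. Every gene of the set entered every fit, so 23.1% is lower than the share among genes that could pass in all of them. The alternatives include leaving out each library, which called 30.7%, 31.8% and 32.3% of all genes without IL-10-producing library 1, 2 or 3 and 31.4%, 31.5% and 30.9% without IL-10-negative library 1, 2 or 3. They also include a block for the replicate number, which called 34.9% of all genes, 16.7% higher and 18.2% lower.

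**Figure D1:**
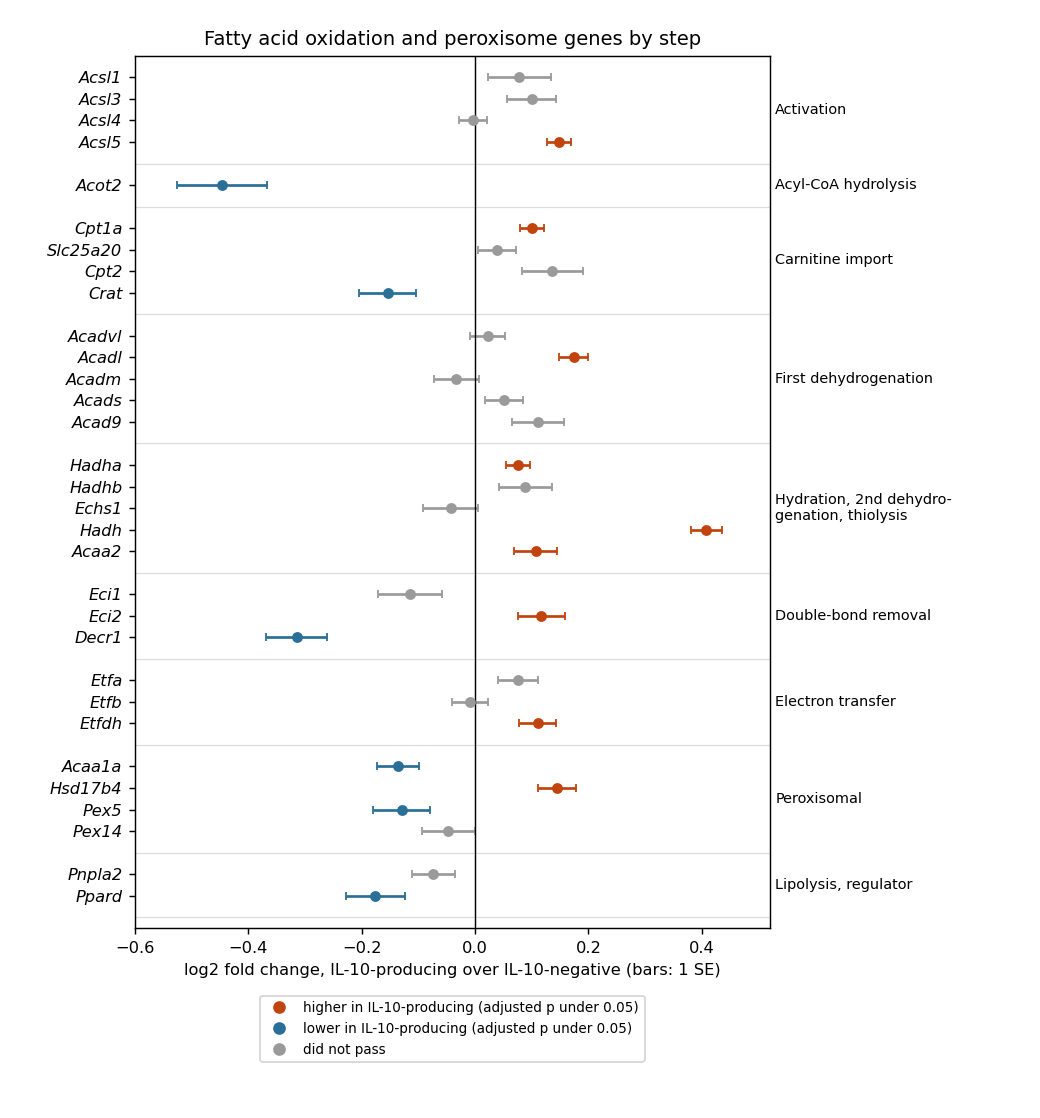
Log2 fold change of each of the 31 genes, IL-10-producing over IL-10-negative, grouped by step, with bars of 1 standard error and colours for the call at an adjusted p under 0.05. Hadh at 0.41 and Acot2 at -0.45 lie farthest from 0, and each step with 2 or more genes holds genes that did not pass.

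**Figure D2:**
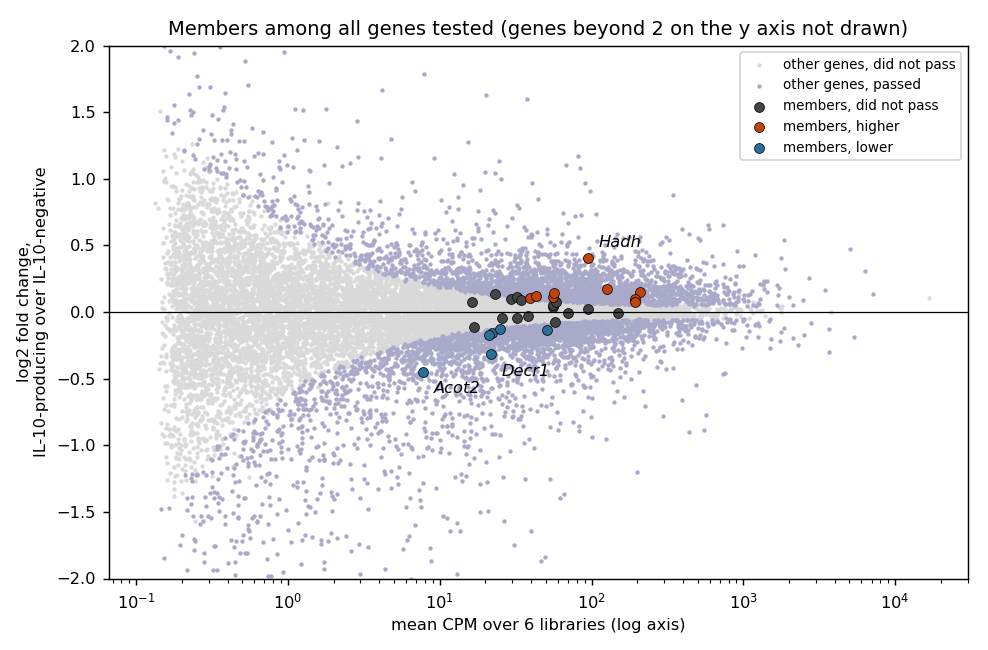
Log2 fold change against mean CPM (log axis) for all 16654 genes tested, with the 31 genes drawn large; 222 genes beyond 2 on the log2 scale are not drawn. The gene set sits at mean levels of 7.72 to 208 CPM and close to 0 on the log2 axis, with Hadh, Acot2 and Decr1 outermost.

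Activation joins a fatty acid to coenzyme A and was measured through 4 long-chain acyl-CoA synthetases. Only Acsl5 passed the test, and it was higher, where 17.1% of all genes were higher and 18.6% lower. Acsl5 (ENSMUSG00000024981.6, chr19:55251938-55297720, GRCm38), an isoform of mitochondria and endoplasmic reticulum, read 219, 222 and 216 CPM in the IL-10-producing libraries and 195, 197 and 201 CPM in the IL-10-negative ones. All 3 IL-10-producing libraries lay above all IL-10-negative libraries, a log2 fold change of 0.15 (SE 0.0213, edgeR adjusted p = 3.79e-06). Exons of Acsl5 overlap 404 bases of the antisense gene Zdhhc6, and without strand the reads there cannot be told apart. Acsl3, an isoform tied to lipid droplets, averaged 30.6 ± 0.638 CPM in the IL-10-producing libraries and 28.6 ± 0.234 CPM in the IL-10-negative ones (adjusted p = 0.0733). Acsl1, the main isoform for oxidation in liver and muscle, averaged 16.7 ± 0.363 CPM in IL-10-producing cells, against 15.9 ± 0.264 CPM in IL-10-negative cells (adjusted p = 0.307). The groups did not overlap for either of these genes, but neither passed. Acsl4, which prefers arachidonic acid, averaged 149 ± 1.0 CPM in the IL-10-producing libraries and 149 ± 4.33 CPM in the IL-10-negative ones, and its log2 fold change of -0.00 had an SE of 0.0245.

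Per kilobase of the longest coding transcript, Acsl5 made up most of the synthetase signal. Its share of the 4 genes was 56.4%, 56.2% and 56.0% in IL-10-producing libraries and 54.4%, 53.4% and 54.4% in IL-10-negative libraries. Acsl4 held 30.5%, 30.5% and 31.0% in IL-10-producing libraries and 32.4%, 33.5% and 32.5% in IL-10-negative libraries. The shares of Acsl3 (8.37% to 8.55%) and Acsl1 (4.61% to 4.75%) had narrow ranges over the 6 libraries. No test was run on these shares, whose groups did not overlap for Acsl5 and Acsl4. The shares are parts of a whole, so a higher share of one gene lowers the others. Acsl4 itself averaged 149 CPM in both groups.

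Acot2, the mitochondrial acyl-CoA thioesterase that releases free fatty acids from their CoA esters, was the gene of the set that fell the most. It read 6.6, 6.58 and 6.42 CPM in IL-10-producing libraries and 9.08, 9.23 and 8.42 CPM in IL-10-negative libraries. The groups lay apart, with every IL-10-producing library below every IL-10-negative library, and the log2 fold change was -0.45 (SE 0.08, edgeR adjusted p = 7.21e-05). It was also the lowest of the 31 genes, at 3.52 CPM per kilobase. Of its 50-base stretches, 24.55% also occur in the paralog Acot1, so its counts are uncertain; Acot1 itself averaged 0.26 ± 0.0534 CPM in the IL-10-producing libraries and 0.236 ± 0.121 CPM in the IL-10-negative ones. The 250 bases before the start of Acot2 (ENSMUSG00000021226.7, chr12:83987861-83993873) lie at chr12:83987611-83987860 on the plus strand (RefSeq, GRCm38.p6) and are shown because this gene changed most downward. Capitals mark a CCAAT box read on the opposite strand, 244 bases before the start.
Acot2 promoter: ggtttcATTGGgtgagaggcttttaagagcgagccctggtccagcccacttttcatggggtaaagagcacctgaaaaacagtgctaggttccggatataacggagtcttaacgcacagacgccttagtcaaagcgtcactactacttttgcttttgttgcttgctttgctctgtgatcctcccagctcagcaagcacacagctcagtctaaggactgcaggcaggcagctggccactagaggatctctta

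Of 4 genes of import into mitochondria, 1 rose, 1 fell and 2 did not pass, where 17.1% of all genes were higher and 18.6% lower. Cpt1a (ENSMUSG00000024900.4, chr19:3323301-3385732), the carnitine palmitoyltransferase of the outer membrane and the rate-limiting step of the route, read 201, 198 and 198 CPM in the IL-10-producing libraries and 184, 187 and 185 CPM in the IL-10-negative ones. The groups did not overlap, and Cpt1a rose by a log2 fold change of 0.10 (SE 0.0211, edgeR adjusted p = 0.000425). Crat (ENSMUSG00000026853.15), the carnitine acetyltransferase that makes acetylcarnitine, read 21.4, 21.2 and 20.6 CPM in IL-10-producing libraries against 24, 22.2 and 24.1 CPM in IL-10-negative libraries. Its IL-10-producing libraries were all lower, at a log2 fold change of -0.15 (adjusted p = 0.0194), but the call was lost without IL-10-producing library 3, without IL-10-negative library 1 or 3, and with a correction for GC content and length (adjusted p up to 0.0863).

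Slc25a20, the carrier that swaps acylcarnitines for carnitine across the inner membrane, averaged 56.8 ± 1.67 CPM in the IL-10-producing libraries and 55.4 ± 0.493 CPM in the IL-10-negative ones, a log2 fold change of 0.04 (adjusted p = 0.41). Cpt2, which frees the acyl group on the matrix side, averaged 24.1 ± 0.829 CPM in IL-10-producing cells, against 21.9 ± 1.48 CPM in IL-10-negative cells. Its log2 fold change of 0.14 just missed the threshold (adjusted p = 0.0505), and it passed in 8 of 15 alternative fits, the replicate block among them (adjusted p = 0.0486).

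The first dehydrogenation of the cycle is done by acyl-CoA dehydrogenases that differ in the chain length they take. Of 5 such genes 1 passed, the long-chain enzyme gene, which was higher, where 17.1% of all genes were higher and 18.6% lower. Acadl (ENSMUSG00000026003.5, chr1:66830839-66863277) read 133, 130 and 137 CPM in the IL-10-producing libraries and 120, 118 and 117 CPM in the IL-10-negative ones. The IL-10-producing libraries were all higher, and the log2 fold change was 0.17 (SE 0.0256, edgeR adjusted p = 5.17e-06). The genes for very long, medium and short chains did not pass. Acadvl averaged 95.9 ± 4.06 CPM in the IL-10-producing libraries and 94.6 ± 2.9 CPM in the IL-10-negative ones. Acadm averaged 37.9 ± 0.991 CPM in IL-10-producing cells and 38.8 ± 0.405 CPM in IL-10-negative cells. Acads averaged 57.1 ± 0.968 CPM in IL-10-producing cells and 55.1 ± 1.55 CPM in IL-10-negative cells. Their log2 fold changes were 0.02 for Acadvl, -0.03 for Acadm and 0.05 for Acads. Acad9, which also helps to assemble respiratory complex I, averaged 33.5 ± 1.62 CPM in the IL-10-producing libraries and 31.0 ± 1.13 CPM in the IL-10-negative ones; its groups did not overlap, and it passed in 3 of 15 alternatives but not in the fit reported here (adjusted p = 0.0613).

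**Figure D3:**
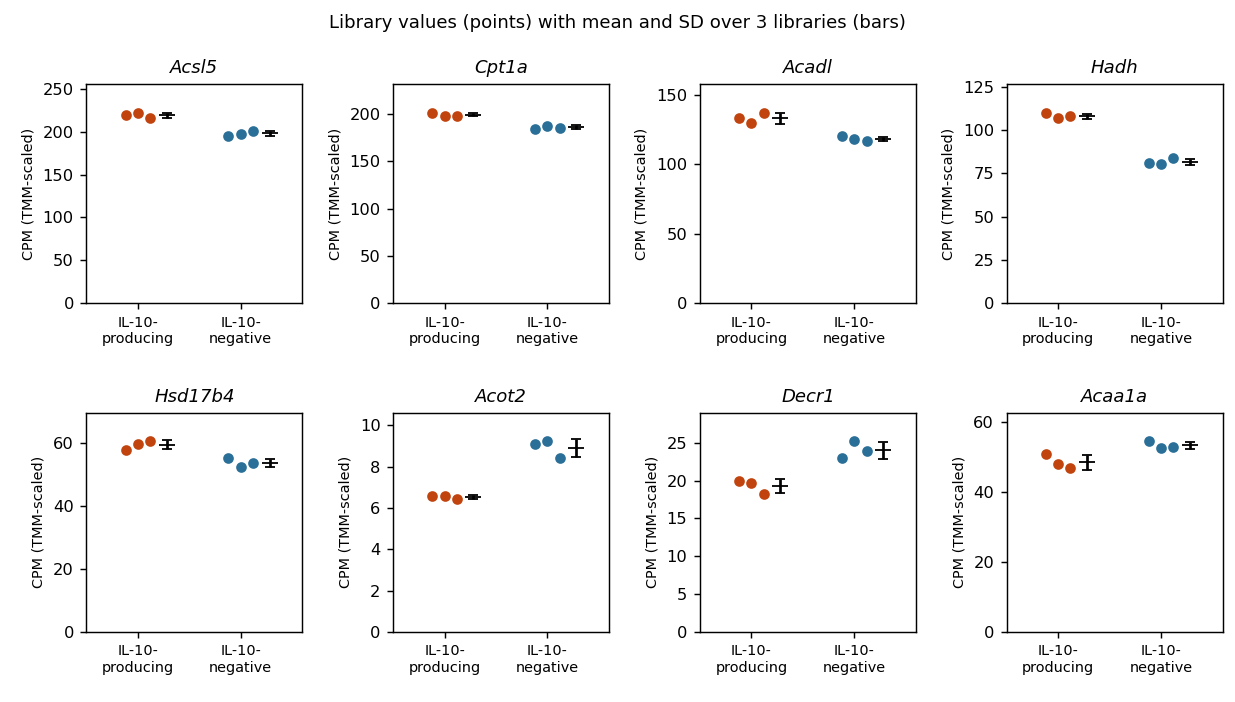
CPM in each library, with the mean and SD over 3 libraries as bars, for the 8 genes that passed in the fit reported here and in all 15 alternatives that test for any change; each panel has its own axis from 0. Acsl5, Cpt1a, Acadl, Hadh and Hsd17b4 are higher and Acot2, Decr1 and Acaa1a lower in IL-10-producing libraries, with no overlap between the groups.

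Hydration, the further dehydrogenation and thiolysis held 3 genes that rose, 2 that did not pass and none that fell, beside 17.1% higher and 18.6% lower over all genes. With scaling by library size alone 1 of the 5 was higher, and with the correction for GC content and length 2 were. Hadh (ENSMUSG00000027984.8, chr3:131233419-131272101, minus strand) encodes the hydroxyacyl-CoA dehydrogenase for short and medium chains, and was the gene of the set that rose the most. It read 110, 107 and 108 CPM in IL-10-producing libraries and 80.9, 80.4 and 83.8 CPM in IL-10-negative libraries. The groups were far apart relative to their spread, with a log2 fold change of 0.41 (SE 0.0273, edgeR adjusted p = 7.22e-12), or 32.7% more. Its promoter, 250 bases at chr3:131272102-131272351 on the minus strand (RefSeq, GRCm38.p6), is shown because this gene changed most upward. Capitals mark a CCAAT box 239 bases and a GC box (GGGGCGGGG) 53 bases before the start.
Hadh promoter: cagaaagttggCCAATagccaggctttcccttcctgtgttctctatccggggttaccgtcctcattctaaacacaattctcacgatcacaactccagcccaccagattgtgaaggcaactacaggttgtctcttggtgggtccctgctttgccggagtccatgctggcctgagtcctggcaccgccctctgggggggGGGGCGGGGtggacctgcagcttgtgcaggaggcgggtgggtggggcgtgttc

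Hadha and Hadhb encode the subunits of the mitochondrial trifunctional protein, the enzyme complex that carries out the later reactions of the cycle for long chains. Hadha (ENSMUSG00000025745.12, chr5:30118304-30155162, minus strand) read 196, 201 and 198 CPM in the IL-10-producing libraries and 186, 187 and 191 CPM in the IL-10-negative ones. Its IL-10-producing libraries were all higher (log2 fold change 0.08, edgeR adjusted p = 0.00729), but the call was lost with scaling by library size alone (adjusted p = 0.102). Hadhb (ENSMUSG00000059447.13, chr5:30155248-30184593, plus strand) read 33.5, 34.9 and 37.4 CPM in the IL-10-producing libraries and 33.6, 34.1 and 31.6 CPM in the IL-10-negative ones. Those groups overlapped, and Hadhb did not pass (log2 fold change 0.09, adjusted p = 0.143). The count ratio of Hadha to Hadhb was 5.85, 5.76 and 5.29 in IL-10-producing and 5.55, 5.49 and 6.03 in IL-10-negative libraries, so it overlapped between the groups. Of the 50-base stretches of Hadhb, 18.14% also occur in the gene Gm13910, so its counts, and the ratio, are uncertain. The genes start back to back with 85 bases between them, which is why the stretch at chr5:30155148-30155262 (plus strand, RefSeq, GRCm38.p6) is shown. Capitals mark the bases between the genes, and the lower case letters belong to Hadha on the left and Hadhb on the right.
Hadha and Hadhb start region: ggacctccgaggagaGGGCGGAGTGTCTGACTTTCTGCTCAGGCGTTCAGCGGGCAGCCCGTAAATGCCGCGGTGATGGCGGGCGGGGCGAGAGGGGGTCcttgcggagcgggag

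Acaa2 (ENSMUSG00000036880.9), the mitochondrial thiolase that cuts off acetyl-CoA, read 41.1, 40.0 and 40.5 CPM in the IL-10-producing libraries and 37.3, 38.1 and 37.4 CPM in the IL-10-negative ones. The groups did not overlap and the log2 fold change was 0.11 (edgeR adjusted p = 0.0295). The call was lost in 5 of 15 alternatives, among them without IL-10-producing library 1 and without IL-10-negative library 1 or 3, with adjusted p up to 0.123. Echs1, the short-chain enoyl-CoA hydratase, averaged 31.7 ± 1.54 CPM in the IL-10-producing libraries and 32.7 ± 1.94 CPM in the IL-10-negative ones (log2 fold change -0.04, adjusted p = 0.539).

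Of the enzymes that prepare unsaturated fatty acids for the cycle, Decr1 fell, Eci2 rose and Eci1 did not pass. Decr1 (ENSMUSG00000028223.8, chr4:15917240-15945507), the mitochondrial dienoyl-CoA reductase, read 19.9, 19.7 and 18.2 CPM in the IL-10-producing libraries and 23.0, 25.2 and 23.9 CPM in the IL-10-negative ones. Every IL-10-producing library was lower, and the log2 fold change was -0.32 (SE 0.0531, edgeR adjusted p = 3.34e-05). Eci2 (ENSMUSG00000021417.15), an enoyl-CoA isomerase found in peroxisomes and mitochondria, read 45.4, 43.3 and 46.3 CPM in the IL-10-producing libraries and 39.1, 42.6 and 42.6 CPM in the IL-10-negative ones. Its IL-10-producing libraries were all higher (log2 fold change 0.12, adjusted p = 0.0286), but the call was lost in 5 of 15 alternatives, among them without IL-10-producing library 1 or 3 and without IL-10-negative library 1 (adjusted p up to 0.185). Eci1, the mitochondrial isomerase, averaged 16.3 ± 0.647 CPM in the IL-10-producing libraries and 17.6 ± 0.538 CPM in the IL-10-negative ones (log2 fold change -0.12, adjusted p = 0.12).

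Electrons from the first dehydrogenation leave through the electron transfer flavoprotein, a dimer of the Etfa and Etfb products, and its ubiquinone reductase, encoded by Etfdh. Etfdh (ENSMUSG00000027809.14, chr3:79603788-79629500) read 57.0, 57.9 and 58.0 CPM in the IL-10-producing libraries and 54.5, 53.1 and 52.7 CPM in the IL-10-negative ones. The groups did not overlap, and Etfdh rose by a log2 fold change of 0.11 (edgeR adjusted p = 0.00989), a call lost with scaling by library size alone (adjusted p = 0.0622). Etfa averaged 59.5 ± 1.29 CPM in the IL-10-producing libraries and 56.4 ± 2.54 CPM in the IL-10-negative ones (adjusted p = 0.107). Etfb averaged 69.6 ± 1.88 CPM in IL-10-producing cells and 69.9 ± 1.95 CPM in IL-10-negative cells (adjusted p = 0.868). Per kilobase Etfb was the highest of the 31 genes, at 78.1 CPM per kilobase, ahead of Acadl at 65.7 and Hadh at 53.1, but 43.81% of its 50-base stretches also occur in the overlapping gene Gm45233.

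Over the mitochondrial cycle with its electron carriers, 6 of 16 genes rose, 1 fell and 9 did not pass, with a median log2 fold change of 0.08, where 17.1% of all genes tested rose and 18.6% fell. Among the 13257 genes with at least 50 counts in 3 libraries, the nearer background, 21.3% rose and 21.9% fell. With scaling by library size alone, 2 of the 16 were higher and 2 lower, and leaving out 1 library gave 4 to 8 higher and 1 lower. The 16 genes summed to 1037, 1037 and 1044 CPM in IL-10-producing libraries and to 967, 976 and 977 CPM in IL-10-negative libraries. The sums did not overlap, and no test was run on them. Abundant genes weigh most in such sums, and Hadh, Acadl and Hadha made up most of the difference. Hadh and Acadl, which both rose in every alternative that tests for any change, are among the most abundant of these genes per length.

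Of 4 peroxisomal genes, 1 rose, 2 fell and 1 did not pass, beside 17.1% higher and 18.6% lower over all genes. Hsd17b4 (ENSMUSG00000024507.6), the bifunctional protein that hydrates and dehydrogenates very long and branched chains, read 57.9, 59.8 and 60.6 CPM in the IL-10-producing libraries and 55.2, 52.5 and 53.7 CPM in the IL-10-negative ones. All IL-10-producing libraries were higher (log2 fold change 0.14, SE 0.0339, edgeR adjusted p = 0.00139). Acaa1a (ENSMUSG00000036138.16, chr9:119339676-119350299), the peroxisomal thiolase that acts next, read 50.7, 47.9 and 46.7 CPM in the IL-10-producing libraries and 54.4, 52.6 and 52.9 CPM in the IL-10-negative ones. All IL-10-producing libraries were lower (log2 fold change -0.14, SE 0.0369, adjusted p = 0.00487). Its exons overlap 290 bases of the antisense gene Myd88, and 12.43% of its 50-base stretches occur in the paralog Acaa1b, which averaged 1.85 ± 0.199 CPM in the IL-10-producing libraries and 1.29 ± 0.433 CPM in the IL-10-negative ones (adjusted p = 0.0628).

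Pex5 (ENSMUSG00000005069.12), the receptor that carries newly made enzymes into peroxisomes, read 24.9, 24.1 and 22.1 CPM in the IL-10-producing libraries and 25.4, 26.3 and 26.1 CPM in the IL-10-negative ones. The groups did not overlap, but the gap was narrow and the call marginal (log2 fold change -0.13, edgeR adjusted p = 0.0474). It was lost in 10 of 15 alternatives, including the replicate block (adjusted p = 0.0505) and every left-out library but IL-10-producing library 1, with adjusted p up to 0.252. Pex14, the membrane docking factor for Pex5, averaged 25.5 ± 0.248 CPM in the IL-10-producing libraries and 26.3 ± 1.07 CPM in the IL-10-negative ones (log2 fold change -0.05, adjusted p = 0.478). Summed, the 4 peroxisomal genes gave 159, 157 and 155 CPM in the IL-10-producing libraries and 162, 157 and 159 CPM in the IL-10-negative ones.

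Ppard (ENSMUSG00000002250.15, chr17:28232754-28301469), a fatty acid-sensing nuclear receptor that activates oxidation genes in muscle and other tissues, read 18.9, 20.4 and 20.2 CPM in the IL-10-producing libraries and 23.0, 21.7 and 22.6 CPM in the IL-10-negative ones. All IL-10-producing libraries were lower (log2 fold change -0.18, SE 0.0519, edgeR adjusted p = 0.00921), a call lost without IL-10-producing library 1 (adjusted p = 0.0703) and with the correction for GC content and length (adjusted p = 0.0622). Pnpla2, the lipase that starts the breakdown of stored triglyceride, averaged 55.7 ± 0.394 CPM in the IL-10-producing libraries and 58.7 ± 3.74 CPM in the IL-10-negative ones. It did not pass (log2 fold change -0.07, adjusted p = 0.146), but passed with scaling by library size alone (adjusted p = 0.0397).

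**Figure D4:**
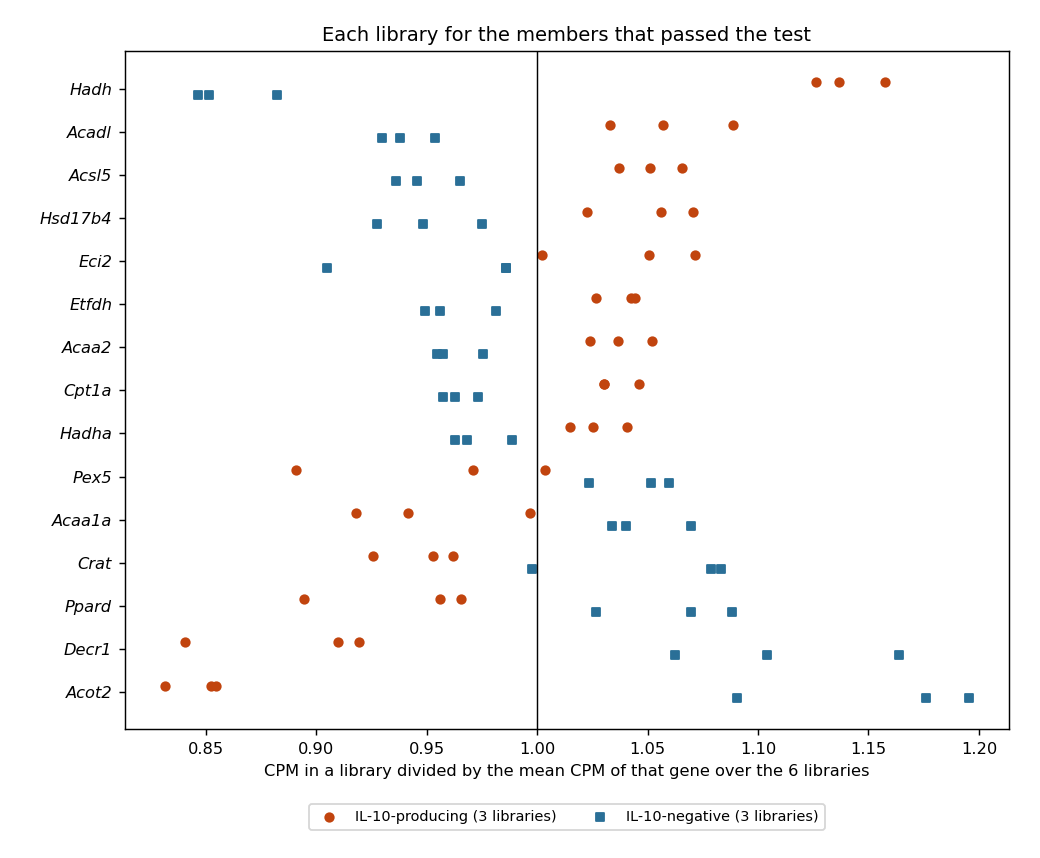
CPM of each library divided by the mean CPM of the gene over the 6 libraries, for the 15 genes that passed, ordered by log2 fold change; the line at 1 is that mean. The groups do not overlap for any of the 15 genes, and the gap is widest for Hadh and narrow for Pex5, Eci2 and Hadha.

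RefSeq gave promoter windows (250 bases before to 50 after a start, GRCm38.p6) for 26 of the 31 genes. These 26 genes had 29 windows, and 7 of the genes rose and 4 fell. A gene counted if any of its windows matched, while the shares of all are per window, so the units differ. On both strands, the response element of peroxisome proliferator-activated receptors, searched as AGGNCA repeated after a single N, was in 0 of the 26 and in 0.381% of all 32851 windows, and the estrogen-related receptor element TCAAGGTCA was in 0 of the 26 and in 0.423% of all. The single nuclear receptor site AGGTCA, which overlaps both of those motifs in its letters, was in windows of Acadm, Acadvl, Cpt1a and Echs1 and in 16.3% of all windows. The nuclear respiratory factor element, GCGCA followed directly by TGCGC, was in the window of Etfdh alone and in 0.971% of all, and TATAAA was in the window of Pex14 alone and in 13.6% of all. CCAAT was in windows of 13 genes, of which 5 rose, 4 fell and 4 did not pass, and in 37.4% of all windows. GGGGCGGGG was in windows of 10 genes, of which 3 rose, 2 fell and 5 did not pass, and in 11.4% of all windows. These are matches of letters, not sites of binding.

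Of 157 other genes of the route, in 8 lists by step, 133 were tested, and 20 were higher and 25 lower in IL-10-producing libraries, where 17.1% of all genes were higher and 18.6% lower. Scaling by library size alone gave 12 higher and 29 lower. The median log2 fold change was -0.02, and the counts of the separate lists below are read against the same shares of all genes. In activation, 2 of 14 rose and 2 fell. Fabp5, a fatty acid carrier of the cytosol, averaged 66.5 ± 1.99 CPM in the IL-10-producing libraries and 53.7 ± 1.71 CPM in the IL-10-negative ones (log2 fold change 0.31, edgeR adjusted p = 8.19e-08). The acyl-CoA binding protein gene Dbi averaged 96.3 ± 4.3 CPM in IL-10-producing cells and 82.5 ± 1.55 CPM in IL-10-negative cells (0.22, adjusted p = 2.56e-06). The synthetase Acsbg1, of another family than the Acsl genes, fell to 73.5 ± 2.03 CPM in IL-10-producing libraries, against 87.4 ± 2.31 CPM in IL-10-negative libraries (-0.25, adjusted p = 2.83e-07). Of 10 other thioesterases, Acot7 rose (0.09, adjusted p = 0.00474; 0.0521 with scaling by library size alone) and Acot13 fell (-0.31, adjusted p = 0.00127).

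Genes that set malonyl-CoA, the inhibitor of the Cpt1a enzyme, and carnitine supply gave 4 higher and 1 lower of 15. Acaca, the acetyl-CoA carboxylase that makes malonyl-CoA, averaged 75.1 ± 1.19 CPM in the IL-10-producing libraries and 64.1 ± 1.86 CPM in the IL-10-negative ones (log2 fold change 0.23, edgeR adjusted p = 1.58e-06). Prkag2, a subunit of the AMP-activated kinase that phosphorylates this carboxylase, averaged 49.4 ± 2.07 CPM in IL-10-producing cells and 39.4 ± 0.52 CPM in IL-10-negative cells (0.33, adjusted p = 1.93e-07). Aldh9a1, of carnitine synthesis, averaged 119 ± 2.46 CPM in IL-10-producing cells and 105 ± 2.48 CPM in IL-10-negative cells (0.17, adjusted p = 9.49e-06).

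Of 22 other mitochondrial genes, 2 rose and 4 fell. Hsd17b10, which like Hadh encodes a short-chain hydroxyacyl-CoA dehydrogenase and acts in branched-chain amino acid breakdown, averaged 67.9 ± 1.79 CPM in the IL-10-producing libraries and 50 ± 0.885 CPM in the IL-10-negative ones (log2 fold change 0.44, edgeR adjusted p = 6.5e-11). Acadsb, a dehydrogenase of branched short chains, averaged 30.4 ± 1.95 CPM in IL-10-producing cells and 35.7 ± 0.862 CPM in IL-10-negative cells (-0.24, adjusted p = 0.000216). Acad10, a dehydrogenase of the same family, averaged 2.54 ± 0.423 CPM in IL-10-producing cells and 3.96 ± 0.256 CPM in IL-10-negative cells (-0.63, adjusted p = 0.000569). Of 3 ketone body genes, Oxct1, which activates ketone bodies for use as fuel, was higher, at 131 ± 2.96 CPM in IL-10-producing cells against 115 ± 1.92 CPM in IL-10-negative cells (log2 fold change 0.18, adjusted p = 2.58e-06).

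Of 30 other peroxisomal enzymes and transporters, 6 rose and 4 fell. The number higher was 2 with scaling by library size alone and 8 with the correction for GC content and length. It was 2 without IL-10-producing library 1, 3 without IL-10-negative library 2, and 4 without IL-10-producing library 2 or IL-10-negative library 1. Without IL-10-producing library 3 or IL-10-negative library 3 it was 5. Far1 and Agps, which make ether lipids, were higher (log2 fold changes 0.21 and 0.12, edgeR adjusted p = 3.4e-07 and 0.000763), and Acox3, an oxidase of branched chains, was lower (-0.19, adjusted p = 0.000743). Of 17 peroxins and fission factors, 1 rose and 2 fell: Dnm1l, the fission GTPase (0.09, adjusted p = 0.0213), Pex19, the carrier of peroxisomal membrane proteins (-0.12, adjusted p = 0.0244), and Pex6, which recycles Pex5 (-0.13, adjusted p = 0.0386). Each of these 3 calls was lost in several alternatives, with adjusted p up to 0.144 for Dnm1l, 0.157 for Pex19 and 0.322 for Pex6.

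Of 22 lipolysis genes and regulators, 3 were higher and 11 lower, where 17.1% of all genes tested were higher and 18.6% lower, and the median log2 fold change was -0.11. With scaling by library size alone 1 was higher and 11 lower, and leaving out 1 library gave 2 to 3 higher and 7 to 9 lower, with 7 lower without IL-10-producing library 1. Hilpda, an inhibitor of the Pnpla2 lipase on lipid droplets, averaged 58.8 ± 1.26 CPM in the IL-10-producing libraries and 43.7 ± 0.901 CPM in the IL-10-negative ones (log2 fold change 0.43, edgeR adjusted p = 3.05e-10). The corepressor gene Nrip1 averaged 271 ± 7.36 CPM in IL-10-producing cells and 324 ± 2.81 CPM in IL-10-negative cells (-0.26, adjusted p = 4.18e-10). Tfe3, a transcription factor of lysosomal genes, averaged 45.0 ± 1.98 CPM in IL-10-producing cells and 56.5 ± 2.56 CPM in IL-10-negative cells (-0.33, adjusted p = 3.27e-07).

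**Figure D5:**
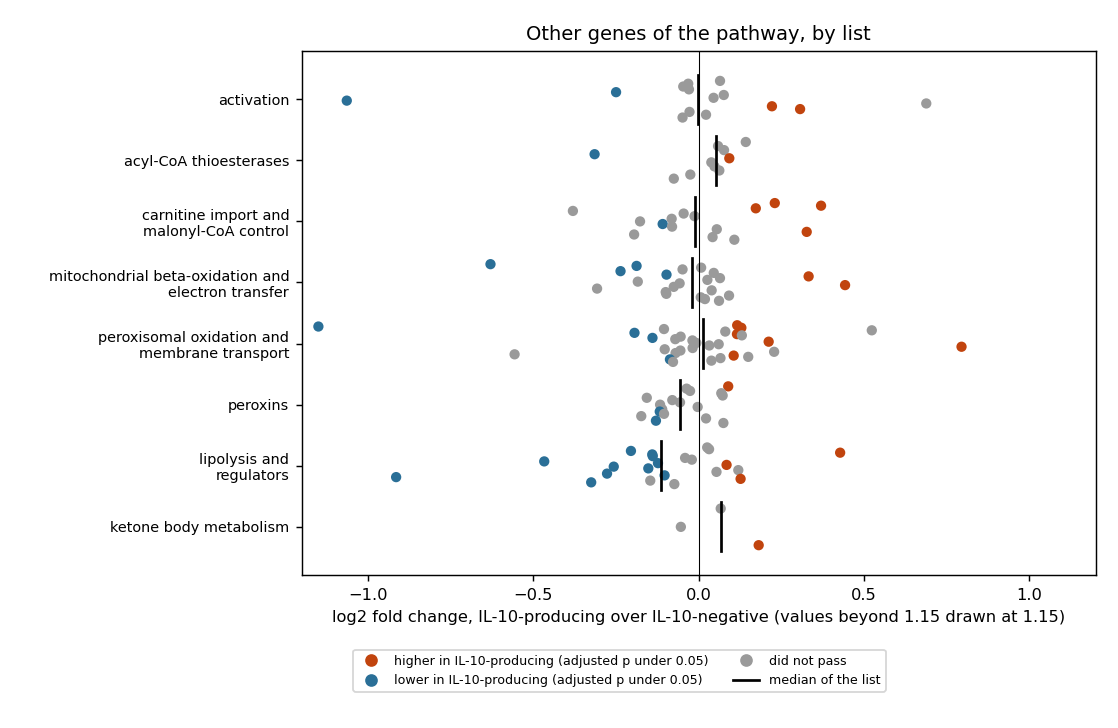
Log2 fold change, IL-10-producing over IL-10-negative, of the 133 other genes tested, by list, coloured by call, with the median of each list as a bar; 1 gene, at -2.02, is drawn at the edge of the axis. The medians lie between -0.11 for lipolysis and regulators and 0.07 for ketone body metabolism.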

How the data were processed

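RNA sequencing of 6 libraries was analysed. Per the submitters' processing notes, the tools were bcl2fastq 2.17.1.14, STAR 2.5.3a and Partek, and the build was mm10 (GRCm38); the annotation release and use of strand are not given in the sources used here. The authors deposited estimated counts per gene (50.4% of values not whole), rounded here, and a table of normalized signal for 13824 genes, each value the estimated count plus 1 times a factor per library (tolerance 1%). Positions come from the deposited table, with 1 subtracted from the stop, and overlaps from GENCODE M21.

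Counts were tested with edgeR 4.0.16 (R 4.3.3): TMM factors (0.986 to 1.011), filterByExpr (minimum count 10, minimum total 15; 16654 genes kept), group as the only term, and the quasi-likelihood test with Benjamini-Hochberg adjustment over all genes at 0.05. CPM are TMM-scaled, mean ± SD over 3 libraries. Standard errors were back-calculated, as the log2 fold change without sign divided by the square root of the quasi-likelihood F statistic. The design was checked on simulated data. The alternatives were scaling by library size only or by DESeq2 size factors; a filter of at least 50 counts in 3 libraries, or none; limma-voom (limma 3.58.1) or DESeq2 1.42.0 as the test; limma on log2 of the authors' normalized signal plus 1, a test against 1.2-fold (glmTreat), the replicate number as a block, a GC and length correction, and leaving out each library. The filter on low counts was applied anew for each left-out library, and the fit on normalized signal changed the values, scaling, genes (13824) and test together. The 15 alternatives that test for any change leave out the test against 1.2-fold. Same-numbered libraries did not deviate together (r of -0.02, -0.02 and -0.04 over 10400 genes), and no library was a copy of another. A shared effect that is small beside library noise would give such values too, so whether the numbers pair libraries is not settled. All 31 genes are named; of the other lists, the 3 smallest p-values past the threshold. Members and lists were chosen with earlier results of these data known.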

Additional observations from a re-analysis of the deposited data

How the results depend on the processing

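Of the 15 genes of the set that passed, 7 lost the call in at least 1 of 15 alternatives that test for any change, and 5 that had not passed gained it. Against 1.2-fold, 1 gene of the set was higher and 1 lower, 2 and 2 of the other pathway genes, and 1317 of all genes against 5943. With library size only, 5 genes of the set and 12 other pathway genes were higher (9 and 20 in the fit reported), the median log2 fold change of the set was 0.02 (0.051 in the fit reported), that of all genes was -0.034, and 36.8% of all calls were higher, against 47.8%. With the GC and length correction, 3 genes of the set were lower (6 in the fit reported) and the median was 0.035. Leaving out 1 library gave 7 to 11 genes of the set higher and 4 to 5 lower, and medians of 0.032 to 0.064. It gave 15 to 20 other pathway genes higher and 18 to 22 lower, and 5232 to 5519 of all genes. The replicate block gave 10 higher and 5 lower in the set and 5817 of all genes; it ended the call of Pex5 and gave one to Cpt2, and it changed no other call in the set. The sign turned only for genes near 0 that did not pass: Acsl4 without IL-10-producing replicate 1 (0.003) and without IL-10-negative replicate 2 (0.017; -0.024 to 0.017 over the left-out libraries), Acadvl with library size only (-0.008), and Etfb without IL-10-producing replicate 1 (0.009) and without IL-10-negative replicate 2 (0.007; -0.031 to 0.009 over the left-out libraries). The cause of these shifts was not tested. Standard errors of 0.0211 to 0.08 on the log2 scale and 3 libraries a group limit what could be called.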
